A study of Mus musculus with 6 samples.

Results

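Chemokines are small secreted proteins that guide leukocytes along concentration gradients by binding G-protein-coupled receptors. In CC ligands the first pair of conserved cysteines is adjacent, and in CXC ligands a single residue separates them. Macrophages are a major source of both classes: the CC ligands they release mainly attract monocytes and T cells, Cxcl2 attracts neutrophils, and Cxcl10, a gene induced by interferons, attracts activated T cells. The genes described here are 10 such ligands out of 49315 genes in the count table, chosen by name with earlier results of these data known. They are the 3 CXC ligands Cxcl2, Cxcl10 and Cxcl16, and the 7 CC ligands Ccl2, Ccl3, Ccl4, Ccl5, Ccl7, Ccl9 and Ccl22. All 10 symbols matched a row of the table.

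The libraries were made from RAW264.7, a mouse macrophage line derived from a virus-induced tumour and labelled wild type. SKI-II, known as an inhibitor of sphingosine kinases, was given to 3 samples at 4 μg/mL for 24 h, and the other 3 received DMSO, the solvent, for the same time. The labels name no other treatment, and the design holds 1 cell line, 1 dose and 1 time. The labels do not say whether the 3 samples of a group came from separate cultures. The study's methods state for all its experiments that they were repeated independently. Treatment and RNA extraction followed its qPCR assay, for which 3 biological replicates per condition are given. How this applies to the sequenced samples is not said, so the p-values measure the spread between these samples.

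Library totals lay between 12495957 and 20050677 counts, and the 10 ligands together took 0.0510% to 0.0780% of the counts with DMSO and 0.0223% to 0.0339% with SKI-II. All 8 macrophage markers examined (Adgre1, Cd68, Csf1r, Lyz2, Itgam, Ptprc, Cd14 and Fcgr1) were detected in every library. Their summed level was 137674 to 202771 normalized counts with DMSO and 87293 to 125093 with SKI-II. The fall of this sum rests on Lyz2, at 88328, 90551 and 150574 with DMSO and 23620, 61283 and 52949 with SKI-II. Of the 8 markers, Adgre1, Lyz2 and Itgam were lower and Cd14 and Fcgr1 were higher with SKI-II. Markers of other cells were at or near 0: per library, 4 fibroblast genes summed to at most 25 counts, 3 endothelial genes to at most 19, 4 T cell genes to at most 6, 4 B cell genes to at most 5 and 4 epithelial genes to 0. The neutrophil list held at most 117 counts, nearly all from S100a8, with Ly6g at 0. In bulk RNA, fewer cells of a type and less RNA per cell cannot be told apart.

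With SKI-II the ligands moved in opposite directions. Cxcl2 rose about 35.5-fold, while Cxcl10, Cxcl16, Ccl3, Ccl5 and Ccl9 fell, and Ccl2 and Ccl4 did not pass the test. Values are normalized counts, which are read counts divided by the library size after TMM scaling (a correction for differences in composition) and brought to the size of the mean library. Fold changes and p-values come from the quasi-likelihood test of edgeR, adjusted by Benjamini-Hochberg over 12274 tested genes, and a gene was called at an adjusted p below 0.05. Of the 10 ligands, 8 had enough reads for the test, 1 was called higher and 5 were called lower. Over all tested genes, 18.4% were called higher and 19.7% lower. With the added condition of a log2 fold change above 1 or below -1, 1 ligand was higher and 4 were lower, against 8.29% and 7.45% of all tested genes. The median log2 fold change was -1.02 over the 8 tested ligands and 0.00 over all tested genes. Cxcl10 and Ccl5 met the filter's minimum count in all libraries of the DMSO group only. The ligands were also chosen with earlier results of these data known. These counts and this median therefore describe the ligands that were tested and are no evidence on ligands at large.

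**Figure D1:**
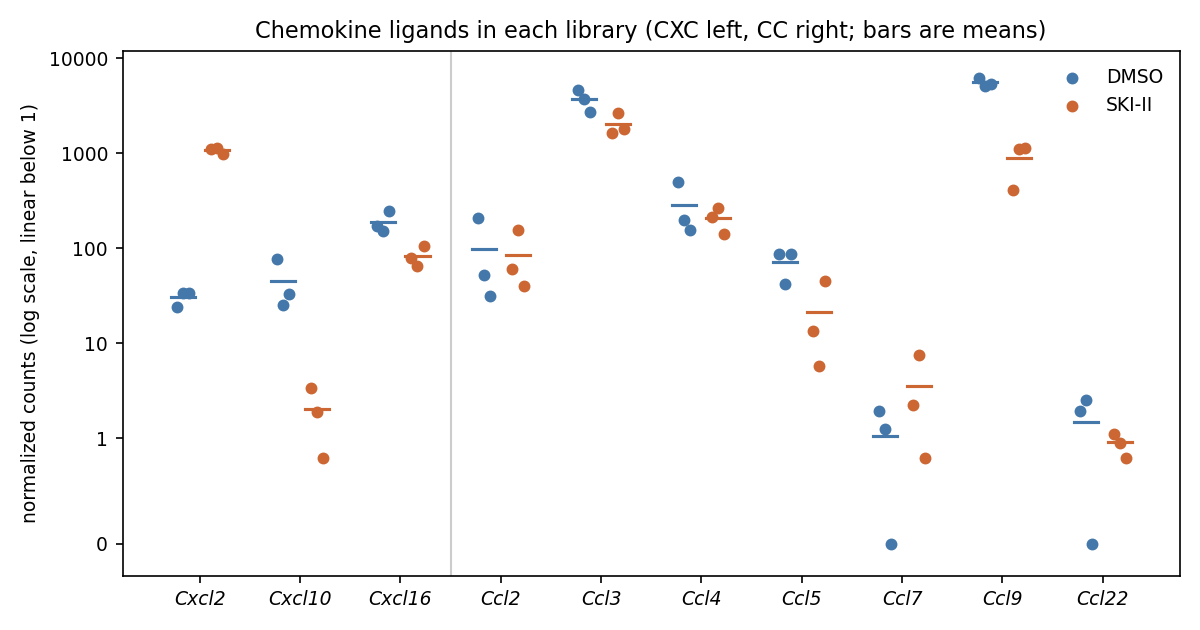
Normalized counts of the 10 ligands (vertical axis, log scale, linear below 1) in each of the 3 DMSO libraries (blue points) and 3 SKI-II libraries (orange points), with short bars at the group means; CXC ligands are on the left and CC ligands on the right. Cxcl2 stands at 24.3 to 34.1 with DMSO and 987 to 1143 with SKI-II, Cxcl10 and Ccl9 lie lower with SKI-II without overlap, and Ccl2 and Ccl4 overlap between the groups.

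Cxcl2 (chr5:90903871-90905938, plus strand, GRCm38), a ligand of Cxcr2, was the one ligand called higher. It stood at 24.3, 34.1 and 33.7 normalized counts in DMSO replicates 1, 2 and 3 and at 1116, 1143 and 987 in the SKI-II replicates. The lowest SKI-II library was far above the highest DMSO library, and the spread within either group was small beside the gap. The means were 30.7 ± 5.55 (SD, n = 3) and 1082 ± 83.1 (SD, n = 3), which is 5.15 on the log2 scale (standard error 0.18, 95% confidence interval 4.74 to 5.55, adjusted p = 6.02e-07). By log2 fold change Cxcl2 was 32nd from the top of the 12274 tested genes. Leaving out any single library kept its log2 fold change between 4.98 and 5.23.

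Cxcl10 (chr5:92346638-92348889, minus strand), the interferon-induced ligand of Cxcr3, went the other way. Its levels were 77.7, 25.3 and 32.7 normalized counts with DMSO and 3.36, 1.91 and 0.815 with SKI-II. The groups did not overlap, although DMSO replicate 1 held more than the other DMSO libraries together. The 133 counts seen over the DMSO libraries compared with 6 with SKI-II, giving a ratio of 0.0403 after correction for library size, with an exact (Clopper-Pearson) 95% interval of 0.0145 to 0.0901 that covers counting error only. The log2 fold change was -4.57 (standard error 0.80, adjusted p = 0.000661) and lay between -5.11 and -3.94 with any library left out. Since Cxcl10 passed the filter only where it is high, this call is a description, and the counts of each library carry the difference.

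Cxcl16 (chr11:70453983-70459984, minus strand) encodes a membrane-bound ligand of Cxcr6 that also acts as a scavenger receptor and is released by proteases. It measured 171, 152 and 247 normalized counts with DMSO and 79.4, 65.8 and 105 with SKI-II. Every SKI-II library was below every DMSO library. Its log2 fold change was -1.18 (standard error 0.26, 95% confidence interval -1.77 to -0.60, adjusted p = 0.00616).

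Parts of these genes lie over genes on the other strand: 133 exonic bases of Cxcl10 are shared with Art3 and 552 of Cxcl16 with Zmynd15. The sources used here do not give the strand setting of the counting, and reads from these stretches cannot be assigned. Art3 had at most 4 counts and Zmynd15 at most 15 in any library.

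Among the CC ligands, Ccl9 (chr11:83572919-83578636, minus strand), also known as MIP-1 gamma and a ligand of Ccr1, fell with SKI-II. It had the most reads of the 10 ligands with DMSO, standing at 6249, 5137 and 5402 normalized counts with DMSO and 407, 1121 and 1148 with SKI-II. Each SKI-II library lay far below the DMSO range, and SKI-II replicate 1 was the lowest. The means were 5596 ± 581 (SD, n = 3) and 892 ± 420 (SD, n = 3), which is -2.65 as log2 fold change (standard error 0.31, 95% confidence interval -3.34 to -1.96, adjusted p = 0.000244). Without SKI-II replicate 1 the call held, and over all libraries left out in turn the value lay between -2.87 and -2.31.

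The promoters of Cxcl2, Cxcl10 and Ccl9, the called ligands with the steepest changes that are in the RefSeq promoter table (GRCm38.p6, with 5 of the 10 ligands), are shown because Cxcl2 rose while Cxcl10 and Ccl9 fell. Each run is read 5′ to 3′ on the gene's own strand and ends at the last base before transcription. For Cxcl2, GENCODE M21 places the gene start 28 bases before RefSeq, so its run was shortened to 222 bases; the other runs have 250. Capitals mark every match, on either strand, to the motifs that were searched: the kB motif bound by NF-kB, the core of the interferon response element (ISRE) AAANNGAAA, the AP-1 motif TGANTCA, the CRE motif TGACGTCA, the C/EBP-ATF motif TGATGNAAT, the core of the antioxidant response element TGACNNNGC and the TATA motif TATAAA.
Cxcl2, chr5:90903649-90903870: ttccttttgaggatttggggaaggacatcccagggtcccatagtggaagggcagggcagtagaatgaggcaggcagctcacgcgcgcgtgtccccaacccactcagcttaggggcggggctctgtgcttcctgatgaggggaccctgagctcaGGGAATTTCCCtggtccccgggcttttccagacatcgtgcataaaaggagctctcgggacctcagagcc
Cxcl10, chr5:92348890-92349139: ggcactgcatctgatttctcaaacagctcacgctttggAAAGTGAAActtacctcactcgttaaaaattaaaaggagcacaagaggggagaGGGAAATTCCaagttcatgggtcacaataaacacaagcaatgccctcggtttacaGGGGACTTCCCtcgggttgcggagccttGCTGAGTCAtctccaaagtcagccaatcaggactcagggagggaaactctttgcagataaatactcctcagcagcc
Ccl9, chr11:83578637-83578886: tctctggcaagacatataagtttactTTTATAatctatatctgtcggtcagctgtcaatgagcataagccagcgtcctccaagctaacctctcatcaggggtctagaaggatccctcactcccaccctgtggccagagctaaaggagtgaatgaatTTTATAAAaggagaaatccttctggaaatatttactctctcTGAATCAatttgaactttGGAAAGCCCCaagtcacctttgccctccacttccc

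The kB motif was matched in all 3 windows, beginning 97 bases before the RefSeq start in Cxcl2, at 159 and 104 bases in Cxcl10, and at 35 bases in Ccl9. It is held by 7.25% of 32851 RefSeq promoters searched over the same 250 bases. Cxcl10 also holds the ISRE core, which 9.37% of promoters hold, and a stretch that matches both the AP-1 motif and, overlapping it, the antioxidant response element core (6.75% and 10.2% of promoters). Ccl9 holds an AP-1 match and 3 TATA matches, of which 2 overlap each other, with 12.4% of promoters holding the latter motif. The CRE and C/EBP-ATF motifs, in 1.55% and 0.816% of promoters, matched none of these 3 windows. A match is a stretch of letters and not a measured binding site, and the kB match is found in Cxcl2, which rose, and in Cxcl10 and Ccl9, which fell. The windows of Ccl3, which also fell, and Ccl22, which was not tested, held no match to any of the motifs.

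Ccl3 (chr11:83647844-83649355, minus strand) and Ccl4 (chr11:83662584-83664683, plus strand), known as MIP-1 alpha and MIP-1 beta, are neighbours whose starts are 13.2 kb apart. Ccl3 is one of the chemokines that the study used as markers of inflammatory (M1) macrophages. The study names neither Ccl3 nor Ccl2 among the markers that rose significantly in its qPCR at the same dose and time. In these libraries Ccl3 measured 4653, 3705 and 2710 normalized counts with DMSO and 1652, 2658 and 1820 with SKI-II. The groups did not overlap, but the highest SKI-II library, replicate 2, came close to the lowest DMSO library, replicate 3. The log2 fold change was -0.85 (standard error 0.22, 95% confidence interval -1.35 to -0.36, adjusted p = 0.0135). Without SKI-II replicate 1 it was -0.73 and no longer called (adjusted p = 0.0645, against 6.73e-07 to 0.0645 over 13 alternatives).

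Ccl4 measured 498, 201 and 157 normalized counts with DMSO and 215, 264 and 141 with SKI-II. The groups overlapped, and DMSO replicate 1 alone lay above all other libraries. The log2 fold change of -0.47 (standard error 0.40, 95% confidence interval -1.37 to 0.42) did not pass the test (adjusted p = 0.386). Without DMSO replicate 1 its sign turned, to 0.19 (adjusted p = 0.627, against 0.0934 to 0.666 over 13 alternatives). The number of Ccl4 counts per Ccl3 count within a library was 0.107, 0.0542 and 0.0581 with DMSO and 0.130, 0.0994 and 0.0774 with SKI-II, so the ratios overlapped. The difference of 0.52 in the mean log2 ratio gave p = 0.3 in an exact two-sided permutation test (0.45 after adjustment over 3 pairs of neighbours), in a design whose smallest p is 0.1. That difference was 0.83 without DMSO replicate 1, and 0.34 without DMSO replicate 2 or 0.33 without SKI-II replicate 1.

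Ccl5 (chr11:83525778-83530518, minus strand), or RANTES, is a ligand of Ccr1 that is typically induced by interferon and NF-kB signalling. It held 86.4, 41.7 and 86.1 normalized counts with DMSO and 13.4, 5.73 and 44.8 with SKI-II. The groups overlapped, since SKI-II replicate 3 lay above DMSO replicate 2. SKI-II over DMSO gave a log2 fold change of -1.71 (standard error 0.60, 95% confidence interval -3.05 to -0.38, adjusted p = 0.0460), just inside the threshold. This call too is a description, since only the DMSO group met the filter's minimum count in all its libraries. SKI-II replicate 2 held 6 counts of Ccl5. The call was lost when replicate 1 or 3 of DMSO, or replicate 1 or 2 of SKI-II, was left out, at -1.57, -1.56, -1.49 and -1.27 with adjusted p of 0.0822, 0.0898, 0.152 and 0.115. Without SKI-II replicate 3 the log2 fold change was -2.94 (adjusted p = 0.00245), and over 12 alternatives the adjusted p lay between 2.16e-05 and 0.152. The log2 ratio of Ccl9 to Ccl5, whose starts are 48.1 kb apart, was 6.35 ± 0.51 (SD, n = 3) with DMSO and 5.68 ± 1.58 (SD, n = 3) with SKI-II. The exact permutation test gave p = 0.6 (0.6 adjusted over 3 pairs). Its smallest possible p is 0.1, so it could not pass 0.05. The difference of -0.67 depended on single libraries: without DMSO replicate 2 it was -0.39, and without SKI-II replicate 1, 2 or 3 it was -0.27, -1.58 and -0.17.

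Ccl2 (chr11:82035571-82037453, plus strand), or MCP-1, the main monocyte attractant and another of the study's M1 markers, varied more between libraries of a group than between groups. It stood at 210, 51.8 and 31.7 normalized counts with DMSO and 60.4, 155 and 39.9 with SKI-II. A single library was high in each group, DMSO replicate 1 and SKI-II replicate 2, and the coefficients of variation were 99.8% and 72.0%, against 18.1% and 7.68% for Cxcl2. On the log2 scale the change was -0.22 (standard error 0.68, 95% confidence interval -1.72 to 1.29, adjusted p = 0.829), so either direction lies within the interval. Its sign turned when DMSO replicate 1 was left out, to 1.02 (adjusted p = 0.172), or SKI-II replicate 3, to 0.13 (adjusted p = 0.899), within a range of 0.172 to 0.992 over 13 alternatives.

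Ccl7 (chr11:82045712-82047525, plus strand) and Ccl22 (chr8:94745590-94751699, plus strand) had too few reads for the test. Ccl7, or MCP-3, lies 10.1 kb from Ccl2 and shares the receptor Ccr2. It was counted 2, 1 and 0 times with DMSO and 2, 8 and 1 times with SKI-II, a ratio of 3.28 with an exact 95% interval of 0.865 to 18.3. SKI-II replicate 2, the highest SKI-II library for Ccl2, was also the highest for Ccl7, while Ccl5 was lowest there. The log2 ratio of Ccl7 to Ccl2, with 0.5 added to each count, differed by 1.17 between the groups (p = 0.2 in the exact permutation test, 0.45 adjusted over 3 pairs). That test cannot give a p below 0.1 here, so it could not pass 0.05. Ccl22, the ligand of Ccr4 that macrophages and dendritic cells make under type 2 cytokines, was counted 2, 2 and 0 times with DMSO and once in each SKI-II library. Its ratio of 0.670 has an interval of 0.0981 to 3.96, so a difference in either gene was not detectable at this depth.

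**Figure D2:**
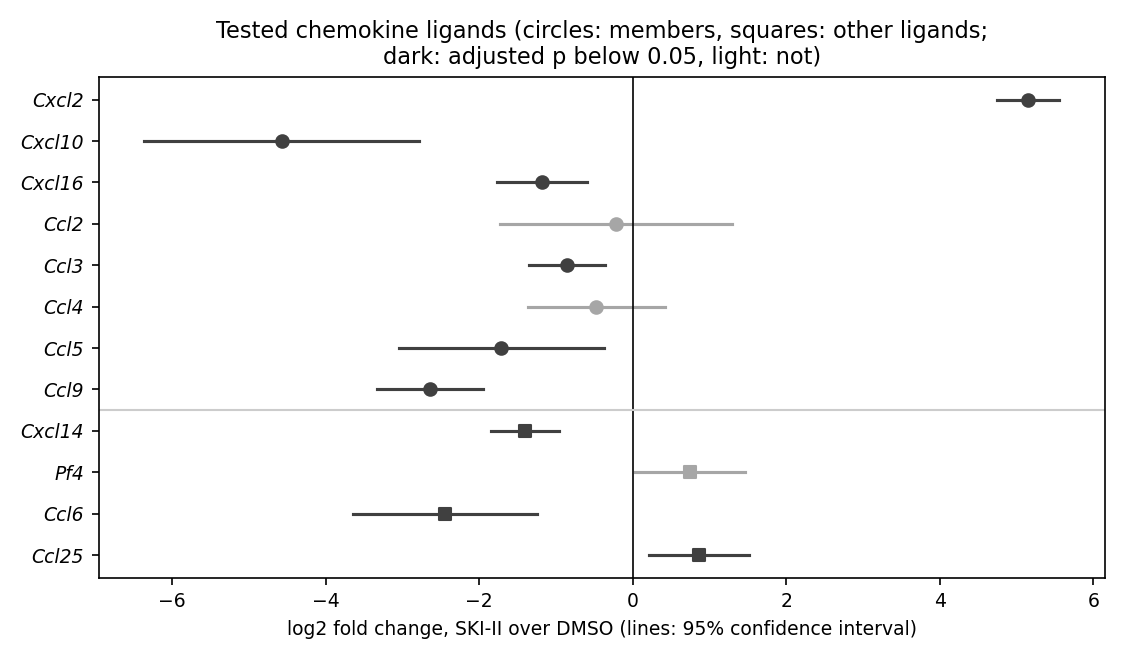
Log2 fold change of SKI-II over DMSO (horizontal axis) with its 95% confidence interval for the 8 tested ligands of the set (circles) and the 4 other chemokine ligands with enough reads (squares); dark symbols passed the test and light symbols did not. Cxcl2 lies alone at 5.15 on the right, Cxcl10, Ccl9 and Ccl6 lie farthest to the left, and the intervals of Ccl2 and Ccl4 include 0.

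The libraries of a group did not rank alike for all ligands. DMSO replicate 1 was the highest DMSO library for 6 of the 8 tested ligands, all but Cxcl2 and Cxcl16. With SKI-II, replicate 2 was the highest for 4, replicate 3 for 3 and replicate 1 for 1. With DMSO replicate 1 left out, 1 ligand was called higher and 4 lower. Cx3cr1, the fractalkine receptor, was also far higher in DMSO replicate 1, at 1704 normalized counts against 435 and 295 in the other DMSO libraries; what sets this library apart was not tested.

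Levels of different genes were compared per length, as RPKM, which divides the read count by the length of the longest coding transcript and by the library size. With DMSO the order was Ccl3 at 300.2 ± 79.0, Ccl9 at 116 ± 12.05, Ccl4 at 27.0 ± 17.5, Ccl5 at 8.37 ± 3.02, Ccl2 at 7.496 ± 7.48, Cxcl16 at 4.38 ± 1.16, Cxcl10 at 2.08 ± 1.31, Cxcl2 at 1.03 ± 0.186, Ccl7 at 0.0832 ± 0.0767 and Ccl22 at 0.0419 ± 0.0372 (SD, n = 3 each). The libraries of Ccl5, Ccl2, Cxcl16 and Cxcl10 overlapped from each to the next, as did those of Ccl7 and Ccl22. With SKI-II, Cxcl2 moved from the 8th place to the 2nd, at 36.3 ± 2.79 RPKM, below Ccl3 at 166 ± 43.9 and above Ccl4 at 19.5 ± 5.86, without overlap of libraries on either side. Ccl9 dropped to the 4th place, at 18.5 ± 8.71 RPKM, overlapping Ccl4 above it and Ccl2 at 6.52 ± 4.69 below it. Cxcl10 went from the 7th to the 9th place, at 0.0934 ± 0.0587 RPKM, overlapping Ccl7. Ccl3 was at the top and Ccl22 at the bottom in both groups, also when the length of all annotated exons was used instead.

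**Figure D3:**
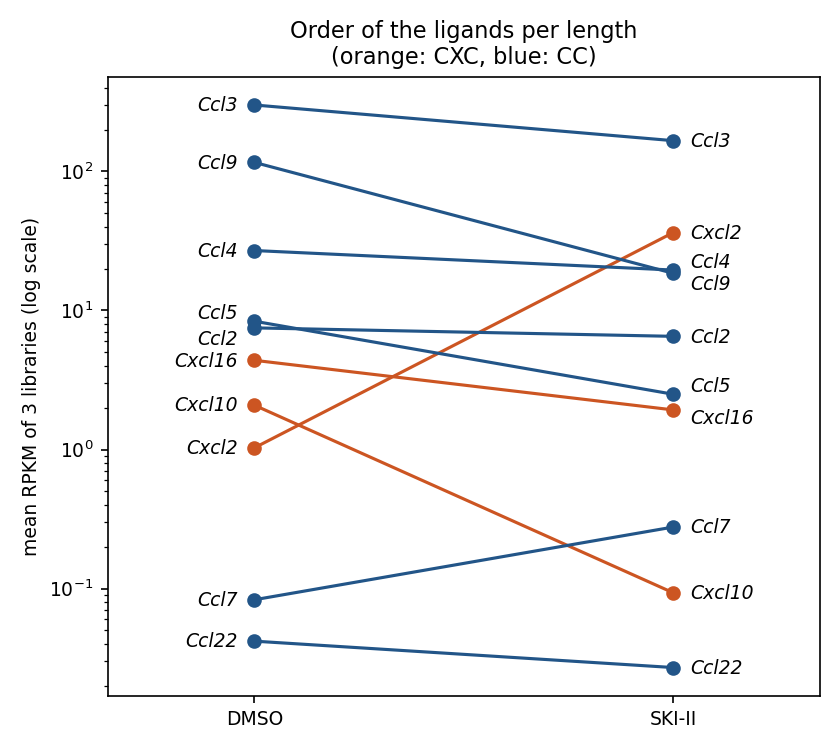
Mean RPKM over 3 libraries (vertical axis, log scale) of each ligand with DMSO (left) and SKI-II (right), joined by a line, for CXC ligands in orange and CC ligands in blue. Cxcl2 climbs from 1.03 to 36.3 across the lines of Cxcl10, Cxcl16, Ccl2, Ccl5, Ccl4 and Ccl9, while Ccl3 stays at the top.

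Summed by class, the CXC ligands were higher and the CC ligands lower in every SKI-II library than in any DMSO library. The 3 CXC ligands summed to 273, 211 and 313 normalized counts with DMSO and to 1198, 1211 and 1093 with SKI-II. The 7 CC ligands summed to 11700, 9140 and 8387 with DMSO and to 2351, 4213 and 3195 with SKI-II. Within a library, which needs no scaling between libraries, the CXC share of the ligand counts was 2.28%, 2.26% and 3.60% with DMSO and 33.8%, 22.3% and 25.5% with SKI-II. The groups did not overlap, and the mean share differed by 24.5 percentage points (a description, with no test on a sum over chosen genes). With counts divided by transcript length the shares were 1.66 ± 0.520% with DMSO and 15.7 ± 3.14% with SKI-II (SD, n = 3 each), a difference of 14.0 points.

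In read counts, which are not corrected for length, the gene with the largest part of each class differed between the groups, whereas per length Ccl3 led the CC ligands in both. Cxcl2 held 8.90% to 16.2% of the CXC counts with DMSO and 90.3% to 94.4% with SKI-II, and Ccl9 held 53.4% to 64.4% of the CC counts with DMSO and 17.3% to 35.9% with SKI-II. Cxcl16 held most of the CXC counts with DMSO, at 62.6% to 78.8%, and Ccl3 most of the CC counts with SKI-II, at 57.0% to 70.3%. Without Cxcl2, a choice made after its values were seen, the CXC share was 2.40 ± 0.72% (SD, n = 3) with DMSO and 2.73 ± 1.00% (SD, n = 3) with SKI-II. By gene, 1 of 3 tested CXC ligands was higher and 2 were lower, and of 5 tested CC ligands 0 were higher and 3 lower in edgeR's test, against 18.4% higher and 19.7% lower of all tested genes. These counts include Cxcl10 and Ccl5, which met the filter's minimum count in all libraries of the DMSO group only.

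**Figure D4:**
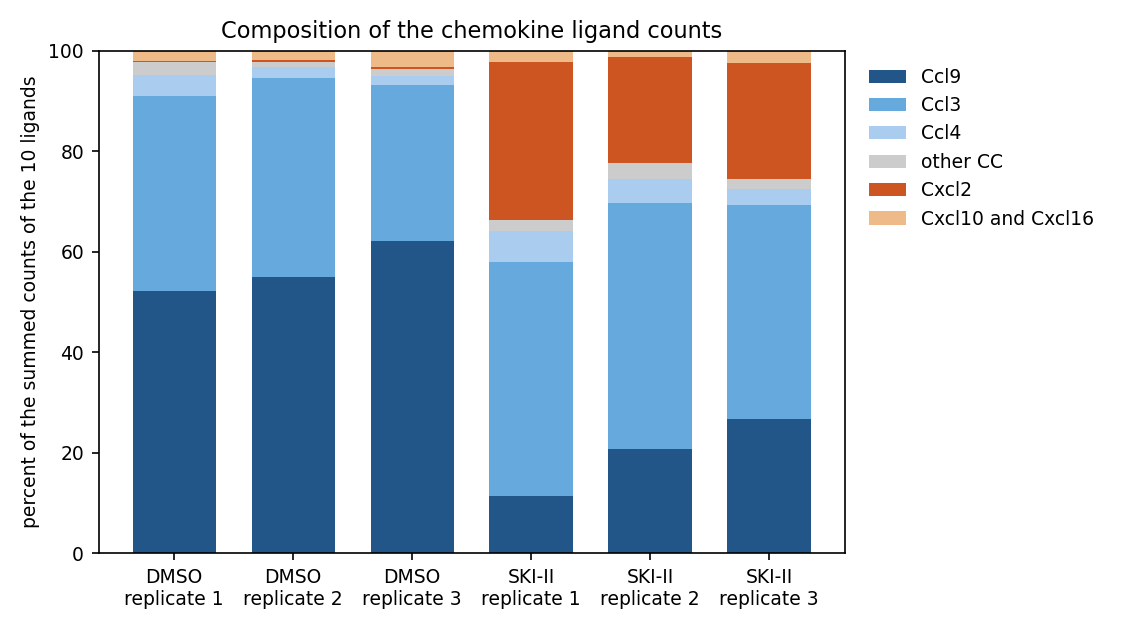
Share of each ligand in the summed counts of the 10 ligands (vertical axis, percent) for each of the 6 libraries, stacked by gene. Ccl9 and Ccl3 fill most of the DMSO bars, and Cxcl2 grows from a thin line to a broad orange band in all 3 SKI-II bars.

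Chemokine genes lie in clusters, so the neighbours of the members were read as well. Upstream of Cxcl2 on chromosome 5, Cxcl1, whose start is 12.6 kb away and whose product also binds Cxcr2, had no count in any of the 6 libraries. Cxcl3, at 118 kb, had no count with DMSO and 3 over the SKI-II libraries, and Cxcl5 had none. Pf4 (platelet factor 4), in the same cluster, had 105, 88.4 and 179 normalized counts with DMSO and 137, 208 and 280 with SKI-II. These overlapped, and its log2 fold change of 0.75 (standard error 0.32) did not pass the test (adjusted p = 0.0950). Pf4 was called higher with no filter, with the replicate block and without DMSO replicate 3, at 0.75, 0.75 and 1.11 with adjusted p of 0.00836, 0.0178 and 0.0188 in edgeR. It was not called in DESeq2, limma-voom, with other scaling, with 10 counts in every library or with any other single library left out. At the Cxcl10 locus, Cxcl9 and Cxcl11, which share its receptor Cxcr3, had at most 3 counts over a group. A count of 0 over a group allows up to 3 counts, so changes in these low neighbours were not detectable at this depth.

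On chromosome 11, Ccl6 lies 14.5 kb from Ccl9 and was also lower in every SKI-II library. It held 20.4, 17.7 and 22.8 normalized counts with DMSO and 1.12, 4.77 and 4.89 with SKI-II, without overlap. Its log2 fold change was -2.45 (standard error 0.54, adjusted p = 0.00426). Like Cxcl10, it passed the filter on low counts only through the DMSO libraries, so its call is a description. Near Ccl2, Ccl8, Ccl11 and Ccl12 had at most 4 counts over a group.

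**Figure D5:**
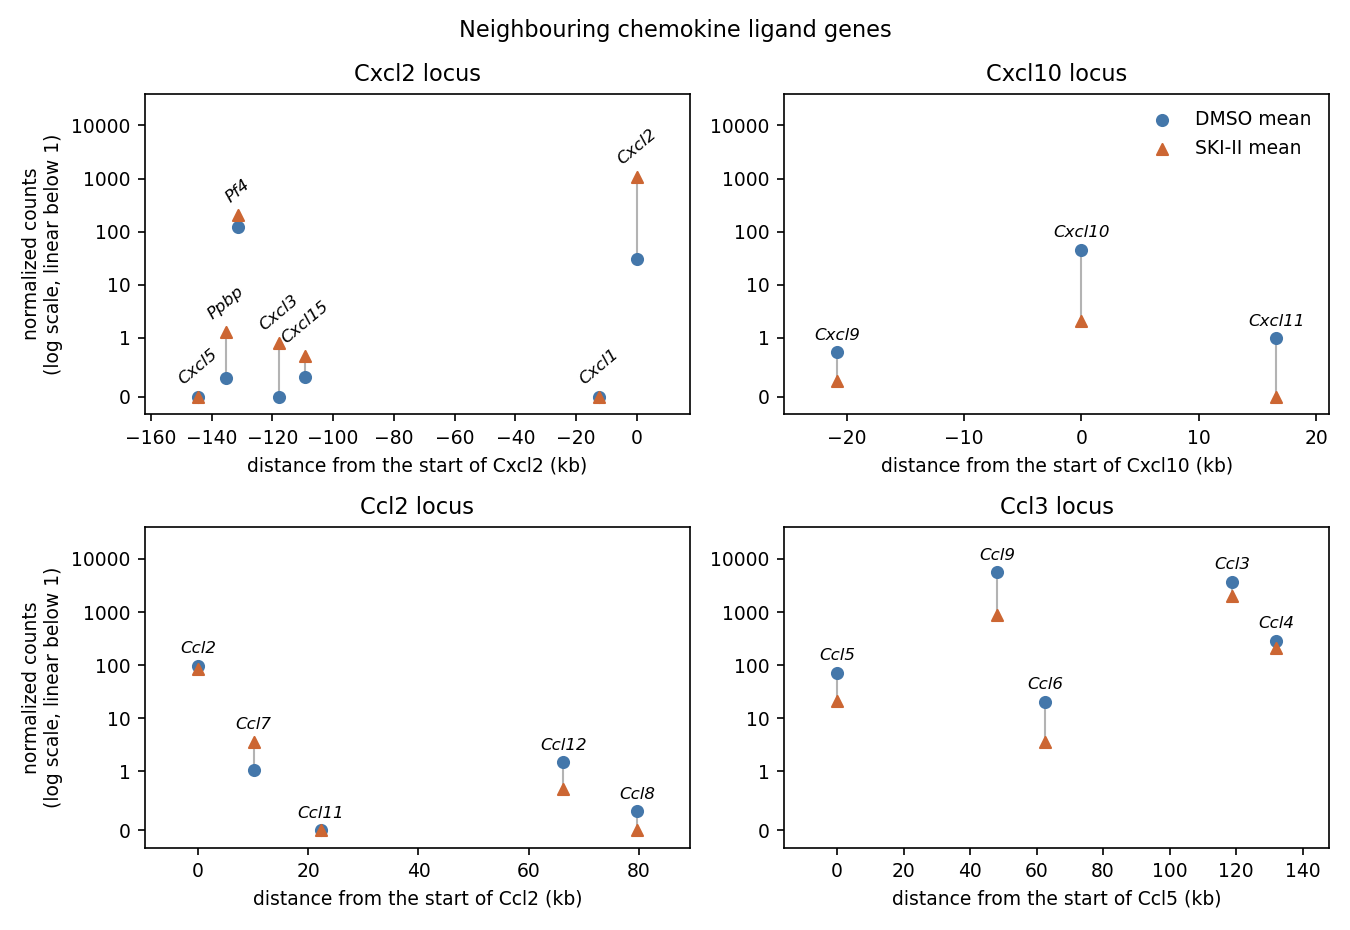
Mean normalized counts with DMSO (blue circles) and SKI-II (orange triangles) of the ligand genes at 4 loci (vertical axis, log scale, linear below 1), placed by the distance of their start from that of Cxcl2, Cxcl10, Ccl2 or Ccl5 (horizontal axis, kb). Cxcl2 rises beside Cxcl1, Cxcl3 and Cxcl5 at or near 0, and Ccl9 and Ccl6 fall side by side.

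Of the other 28 chemokine ligands of the mouse genome that were listed, 12 had no count in any library, another 12 were too low for the test with at most 5 counts in a library, and 4 were tested. Apart from Ccl6 and Pf4 these were Cxcl14, an orphan CXC ligand, and Ccl25, a ligand of Ccr9. Cxcl14 fell from 715, 852 and 949 normalized counts to 225, 352 and 371, or -1.40 on the log2 scale (standard error 0.20, adjusted p = 0.000558). Ccl25 rose from 65.1, 118 and 62.4 to 176, 151 and 117, or 0.86 on the log2 scale (standard error 0.29, adjusted p = 0.0422). Its groups overlapped slightly, and 204 of its exonic bases are shared with Elavl1 on the other strand, a gene with 1072 to 1641 counts in each library. The call on Ccl25 was lost with scaling by library size alone (adjusted p = 0.0545) and when replicate 1 or 3 of DMSO, or replicate 1 or 2 of SKI-II, was left out, with adjusted p of 0.111, 0.106, 0.153 and 0.104 in edgeR. Its log2 fold change was then 0.86 with library size alone and 0.70, 0.70, 0.71 and 0.85 without those libraries.

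Most receptor genes had few or no reads: of 24, 16 were too low for the test, 7 of them with no count in any library. Of the 8 tested, 2 were called higher and 2 lower. Each is 25% of the tested receptors, near the 18.4% higher and 19.7% lower of all tested genes. Ccr2, the receptor of Ccl2 and Ccl7, rose from 12.6, 6.32 and 9.90 normalized counts to 162, 119 and 96.1, or 3.68 on the log2 scale (standard error 0.37, adjusted p = 6.11e-05). Only in the SKI-II group, where it is high, did all libraries meet the filter on low counts. Its call and its place in the count are therefore a description. Ccr1, the receptor of Ccl3, Ccl5 and Ccl9, rose from 53.4, 35.4 and 20.8 to 69.4, 225 and 98.6 (log2 fold change 1.84, adjusted p = 0.0129). Without SKI-II replicate 2, the highest library, the call on Ccr1 was lost (1.21, adjusted p = 0.0609). Cxcr4 and Cx3cr1 fell, with log2 fold changes of -1.77 and -3.92 and adjusted p of 0.000843 and 0.00111. Without DMSO replicate 1, the library where it was far above the others, Cx3cr1 had a log2 fold change of -2.77 (adjusted p = 8.51e-05). Cxcr2, the receptor of Cxcl2, had 1 count over each group, while Cxcr3, the receptor of Cxcl10, had 73.3 to 177 normalized counts with DMSO and 165 to 231 with SKI-II (adjusted p = 0.0657).

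A list of 38 genes whose products control chemokine transcription (NF-kB and its inhibitors, IRF, STAT, C/EBP and AP-1 factors) was read in the same fit. The list was chosen with earlier results of these data known, so its counts and shares are a description. Of 37 tested genes, 13 were higher (35.1%, against 18.4% of all tested genes) and 8 lower (21.6%, near the 19.7% of all tested genes), with a median log2 fold change of 0.17. The largest rises were those of Fosl1 at 2.40, Fosb at 2.06 and Nfkbiz at 2.03, with adjusted p of 0.000479, 0.0113 and 0.000555. The first pair are AP-1 subunits, and Nfkbiz encodes a nuclear IkB protein that acts with NF-kB on secondary response genes. Among the falls were those of Irf7 at -2.24 and Tnfaip3 at -1.01, with adjusted p of 0.000656 and 0.0256. Irf7 carries interferon responses, of which Cxcl10 is a classical target, and Tnfaip3 encodes A20, a brake on NF-kB. Nfkb1 and Rela, the subunits of the common NF-kB dimer, had log2 fold changes of 0.15 and 0.30 and did not pass the test (adjusted p = 0.297 and 0.104). The other NF-kB subunits, Nfkb2, Relb and Rel, were lower, with log2 fold changes of -0.50, -0.81 and -0.69 and adjusted p of 0.0262, 0.0241 and 0.00366.

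Of 19 genes that act on the stability of chemokine mRNAs or the cleavage of the proteins, 16 were tested, 0 were higher and 4 were lower. Their median log2 fold change was -0.27 in edgeR's fit. The lower genes are 25% of those tested, near the 19.7% of all tested genes, and numbered 7 with no filter and 1 with the fold change condition. At an unadjusted p below 0.05, 1 gene was higher, and DESeq2 and limma-voom also called 0 higher. Zfp36l1, which encodes an RNA-binding protein that promotes decay of AU-rich mRNAs, fell by 1.16 on the log2 scale (adjusted p = 0.00540). Cnot1 and Pan2, from the deadenylase complexes, had log2 fold changes of -0.62 and -0.71 (adjusted p = 0.00198 and 0.0154). Adam17, a sheddase, had one of -0.77 (adjusted p = 0.00128), and Adam10, known to release Cxcl16 from the membrane, had one of -0.05 and did not pass the test (adjusted p = 0.787).

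By the likeness of log2 CPM over the 6 libraries, the genes closest to Cxcl2 were Plpp5, Avil and Myh9, with Pearson correlations of 0.9998, 0.9997 and 0.9992. Those closest to Cxcl10 were Fasn, Eme1 and Mtmr12, at 0.9974, 0.9969 and 0.9958. These correlations describe libraries that fall into 2 groups: 1526 tested genes had one above 0.9 with Cxcl2 and 1102 with Cxcl10. Avil, which encodes the actin-binding protein advillin, was counted 51, 67 and 93 times with DMSO and 10342, 12606 and 13617 times with SKI-II. Fasn, the fatty acid synthase gene, was counted 9582, 5576 and 7303 times with DMSO and 3438, 3890 and 3897 times with SKI-II, and like Cxcl10 was highest in DMSO replicate 1.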

How the data were processed

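RNA of 6 RAW264.7 samples was sequenced after poly(A) selection. Reads were trimmed with Trimmomatic 0.36 and mapped with STAR 2.5.2b, and the authors deposited raw counts per Ensembl gene; the submitters' processing notes also list featureCounts of Subread 1.5.2 and DESeq2. The sources used here do not give the genome build, the annotation or the strand setting. Symbols and positions are from GENCODE M21 (GRCm38), which named 48970 of 49315 genes. The ligands and gene lists were chosen with earlier results of these data known.

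Counts were filtered by filterByExpr (minimum count 10, minimum total 15), scaled by TMM and tested with the quasi-likelihood test of edgeR 4.0.16 (R 4.3.3) with Benjamini-Hochberg adjustment. Standard errors came from the model weights and the moderated dispersion. Normalized counts refer to the mean effective library size. DESeq2 1.42.0, limma-voom (limma 3.58.1), RLE scaling, library size alone, other filters, each library left out and the replicate number as a block were alternatives. No pair of libraries within a group matched within sampling noise (chi-square per degree of freedom 15.4 to 58.1). This cannot tell separate cultures from separate preparations of 1 culture. Each library was counted as 1 replicate. The edgeR, DESeq2 and voom fits were tested on simulated data. Named genes were the 10 ligands; of every other list, all genes behind a count of 5 or fewer and otherwise the 3 called genes at the top and the 3 at the bottom by log2 fold change; and the 3 tested genes most correlated over the 6 libraries with the called ligand that rose most and with the one that fell most. Pf4, Nfkb1, Rela, Nfkb2, Relb, Rel, Adam10, S100a8, Ly6g and the ligand and receptor genes too low for the test were named after their values were seen, as was Cxcr3. A gene that this rule would name is not reported here.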

Additional observations from a re-analysis of the deposited data

How the results depend on the processing

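Over the edgeR, DESeq2, limma-voom, scaling, filter and block alternatives and with any library left out, 1 ligand was called higher in each. The number called lower was 5 in the reported fit, 3 when every library had to hold 10 counts or more (Cxcl10 and Ccl5 then left the test), 4 with the study's fold change condition and 3 to 5 with a library left out, lowest without SKI-II replicate 1. The calls on Cxcl2, Cxcl16 and Ccl9 held in every alternative, while those on Ccl3 and Ccl5 did not. The call on Cxcl10 held wherever it was tested. It remains a description, since Cxcl10 passed the filter of the reported fit only through its DMSO libraries. The log2 fold change of Ccl2 lay between -0.98 and 1.02 and that of Ccl4 between -0.77 and 0.19 with a library left out; the cause of the turned signs was not tested. The difference in CXC share, 24.5 percentage points, was 14.0 per kilobase and 0.33 without Cxcl2. The median log2 fold change of all tested genes was 0.01 with RLE scaling, 0.00 with library size alone and 0.02 in DESeq2. The replicate block kept 1 ligand higher and 5 lower, and raised the calls over all genes from 2255 and 2413 to 2765 and 2819. The replicate numbers are not known to pair samples: deviations of same-numbered libraries correlated at 0.246, 0.00994 and 0.458, and DMSO replicate 1 correlated best with SKI-II replicate 2, at 0.296. Without a filter on low counts Ccl7 and Ccl22 were tested and not called (adjusted p = 0.409 and 0.840 in edgeR). In that fit edgeR's adjusted p for Cxcl2 was 3.43e-113, against 6.02e-07 in the reported fit, at the same log2 fold change of 5.15. Its p-values, among them the lowest given for Ccl3, Ccl4, Ccl5 and Pf4, are therefore not comparable with the reported ones. Over the alternatives, other ligands called higher numbered 0 to 2, higher receptors 1 to 4, lower regulators 3 to 9 and lower mRNA stability and shedding genes 1 to 7. Depth limits what can be said of Ccl7, Ccl22 and Cxcl10 with SKI-II.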
